A study of Mus musculus with 4 samples.

Results

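The genes described here are 43 sarcomere and Z-disc structural genes of the mouse heart, taken by their symbols from the 23282 genes measured. The rule uses symbols and no measured level, although the list was drawn up with earlier results of these data known, and no symbol stood for more than 1 value. The list was divided by role into 4 thick filament genes, 5 genes of titin and the M-band, 8 cardiac thin filament genes, 7 thin filament isoforms better known from skeletal or fetal muscle, 9 core Z-disc genes, 6 genes of LIM domain proteins, and 4 genes of the costamere and the intermediate filaments. All 43 members had reads in 3 of the libraries and 42 in the fourth.

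Hearts of male CDF1 mice were profiled by mRNA-seq in 4 groups, with 1 library per group. The normal control group, E-&T-, had neither exercise nor cancer, and the normal exercise group, E+&T-, ran on a treadmill. The cancer control group, E-&T+, received CT26 colorectal cancer cells through the tail vein without exercise, and the cancer exercise group, E+&T+, received the same cells and ran on the treadmill. CT26 is a mouse colorectal cancer line, and cells given by this route spread through the body. The exercise was high-intensity aerobic running. The labels give postnatal day 28 as the age of every group, which is the age at purchase in the methods, so the mice were older when the tissue was taken. Whether a heart library came from a single mouse or from a pool is not given in the sources used here. Since a group had 1 library, no difference between groups has a replicate check and no test across groups is possible.

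The sarcomere is the contractile unit of striated muscle. Thick filaments of myosin, held in register at the M-band, slide along thin filaments of actin, tropomyosin and troponin that are anchored at the Z-disc, and titin spans from the Z-disc to the M-band. The Z-disc also carries proteins that take part in sensing mechanical load, and desmin filaments and costameres tie it to its neighbours and to the cell membrane. In the heart many of these proteins are cardiac isoforms whose genes are among the most abundantly transcribed in the tissue.

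Each value given as a log2 level is the deposited log2(normalized read count + 1) of a gene in a library, and each log2 fold change is a difference of such levels. Because of the added 1, the fold change of a gene with few reads is drawn towards 0. The library kit sequences a single stretch near the 3′ end of each mRNA, whatever the length of the transcript, so levels do not scale with that length. Whether the annotated 3′ end of each member is the one used in these hearts was not tested. A low level beside another member may therefore be too low. Whole reads were recovered from the deposited values, with totals of about 6595402 in the normal control, 8477159 in normal exercise, 9532849 in the cancer control and 11546002 in cancer exercise. The 95% intervals given for fold changes and ratios come from these reads by the Clopper-Pearson method. They cover counting error only, since copies made by PCR are not independent molecules, and they say nothing of the difference between mice. A gene was kept in a comparison when at least 1 of both libraries had 4 normalized reads, and it was called higher or lower when the fold change was at least 2.

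The 4 libraries differed in more than the conditions. Globin genes took 37.3% of the reads in cancer exercise (95% Wilson interval 37.2 to 37.3%), against 8.76% in the normal control, 8.40% in normal exercise and 7.86% in the cancer control. In cancer exercise Hbb-bs had 805166 reads and Hbb-b1 791334, while Hbb-bt had 254963 and Hbb-b2 241042. These pairs were also close in the other libraries. The same reads may thus stand under more than 1 symbol, which was not tested. The globin shares, the library totals and the shares of all reads would then be affected, while shares outside globin would not. The summed reads of 8 lung epithelial markers were 562 in the normal control, 196 in normal exercise, 671 in the cancer control and 1728 in cancer exercise, and those of 8 adipocyte markers were 2239, 798, 582 and 2484. The part of these differences in the results for the sarcomere genes was not tested. In a bulk tissue library, fewer cardiomyocytes and less RNA of a gene per cardiomyocyte cannot be told apart.

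How the libraries are scaled moves all genes together. Scaling the recovered reads by library totals moved the median of all genes by -0.02 on the log2 scale for exercise without cancer, -0.15 for cancer without exercise, -0.58 for exercise with cancer and -0.71 for cancer with exercise, the last pair being the comparisons with the globin-rich library. Scaling by totals without the genes over 1% of a library moved it by -0.04, -0.15, -0.07 and -0.17, and scaling by the median of ratios by at most 0.02. The differences given here are on the deposited scale, on which the median of all genes lay near 0, and a positive difference of cancer exercise that is smaller than these shifts turns its sign when library totals are used. Ratios of members within a library do not depend on the scaling.

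Together the 43 members took 8.03% of all reads in the normal control, 7.96% in normal exercise, 7.71% in the cancer control and 5.05% in cancer exercise. Outside the globin reads the shares were closer, at 8.80% (95% Wilson interval 8.78 to 8.82%), 8.69% (8.67 to 8.71%), 8.37% (8.35 to 8.39%) and 8.05% (8.03 to 8.07%). The sarcomere genes as a whole therefore kept a similar share of the transcripts that were not globin, with the normal control highest and cancer exercise lowest. Within that share the 4 thick filament members, which do not include the myosin heavy chains, differed between the libraries. They went from 2.78% of the reads outside globin in the normal control and 2.75% in normal exercise to 2.10% in the cancer control and 2.17% in cancer exercise. The core Z-disc genes went the other way, from 0.393% and 0.379% to 0.542% and 0.467%. Tcap alone had 4078 of the 23647 core Z-disc reads in the normal control and 2762 of 29465 in normal exercise. In the cancer control it had 15739 of 47604, and in cancer exercise 9573 of 33826, so much of this difference lay in 1 gene.

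**Figure D1:**
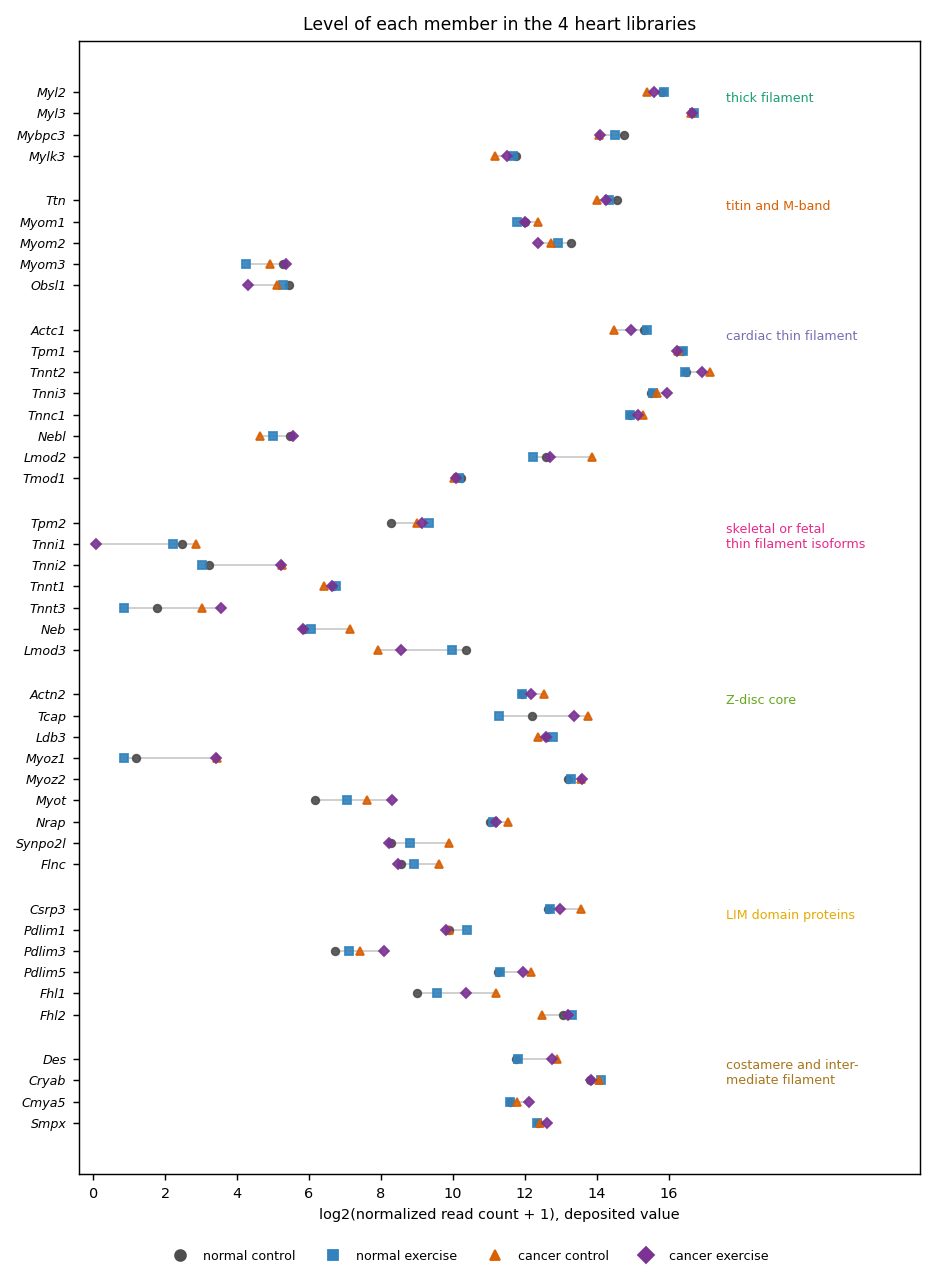
Log2 level of each of the 43 members in the 4 heart libraries, grouped by role. Each symbol is a library, and the grey line spans the lowest to the highest of the 4. The members spanned from 0.08 for Tnni1 in cancer exercise to 17.15 for Tnnt2 in the cancer control, and Myl3 and Tpm1 had short lines while Lmod3, Tcap and Fhl1 had long ones.

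Of the 4 comparisons, that of cancer in mice that did not exercise had the highest number of members past 2-fold, 12 of the 26 calls in all. Between the cancer control and the normal control, 11 of the 43 members were at least 2-fold higher, against 14.6% of the 14317 genes kept, and 1 was at least 2-fold lower, against 13.1%. The 11 made up 25.6% of the members. They were the thin filament genes Lmod2, Tnni2, Tnnt3 and Neb, the core Z-disc genes Tcap, Myoz1, Myot, Synpo2l and Flnc, the LIM domain gene Fhl1, and desmin, Des. The gene that was lower was Lmod3. Since most members are abundant and abundant genes differ less by counting error, the count was repeated on the 34 members whose mean over the libraries reached 100 normalized reads. Of these 7 were higher, or 20.6%, against 7.60% of the 7076 genes at that level, and 1 was lower, against 6.92%. At a fold of 1.5, 17 members were higher, against 24.0% of genes, and 5 lower, against 23.7%. The median log2 fold change was 0.36 over the members and -0.01 over all genes kept.

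With exercise on both sides, the same comparison of cancer with no cancer rests on the other libraries, cancer exercise and normal exercise. There 6 of 42 members were at least 2-fold higher, against 12.0% of 14289 genes, and 1 was lower, against 11.1%. Tnni1 was not kept because both libraries were under 4 normalized reads. The 6 were Myom3, Tnni2, Tnnt3, Tcap, Myoz1 and Myot, and the gene that was lower was again Lmod3. Of the members called higher, 5 were called in both comparisons of cancer, which is 45.5% of those called without exercise and 83.3% of those called with it. Over all genes these shares were 35.6% and 43.4%. Of the 5, Tnnt3 and Myoz1 passed the minimum of 4 normalized reads only through the cancer libraries, where they were high. They could therefore be called higher but hardly lower, and the shares of the members rest partly on them. Of the 5, only Tcap and Myot reached a mean of 100. Both comparisons are of 1 library with 1 library and share none. Among the members that reached a mean of 100, 2 were higher, against 4.54% of 7077 genes, and 1 lower, against 4.51%. At a fold of 1.5 there were 10 higher, against 20.8%, and 3 lower, against 21.6%. The median was 0.15 over the members and -0.01 over all genes kept, and with a mean of 100 it was 0.01 and 0.02. With library totals the median over the members was -0.65 and 11 were lower, and without the genes over 1% the median was -0.0214, so the sign of this median depends on the scaling.

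Few of these genes differed by 2-fold with exercise when there was no cancer, as was so for all genes with a mean of at least 100. Between normal exercise and the normal control, 1 of 41 members was at least 2-fold higher, against 5.88% of 13937 genes, and 1 was lower, against 6.40%. These were Tpm2 and Myom3, and 37 of the 41 lay within 1.5-fold, with 2 higher, against 11.8%, and 2 lower, against 13.0%. Tpm2 was also the only call among the members that reached a mean of 100, where 1.26% of genes were higher and 0.495% lower. Tnnt3 and Myoz1 were not kept. Between cancer exercise and the cancer control, 0 of 43 members were at least 2-fold higher, against 9.39% of 14363 genes, and 5 were lower, against 10.0%. The 5 were Lmod2, Tnni1, Neb, Synpo2l and Flnc, and 31 of the 43 members lay within 1.5-fold, with 5 higher, against 17.5%, and 7 lower, against 19.5%. Among the members that reached a mean of 100, 0 were higher and 3 lower, against 3.24% and 2.84% of genes. The medians over the members were 0.05 and -0.01 in these comparisons, against 0.00 and -0.01 over all genes kept. With library totals 8 members were lower in cancer exercise than in the cancer control, with a median of -0.56. That comparison and the comparison of cancer without exercise share the cancer control, so a high value in that library makes a member lower in the former and higher in the latter.

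**Figure D2:**
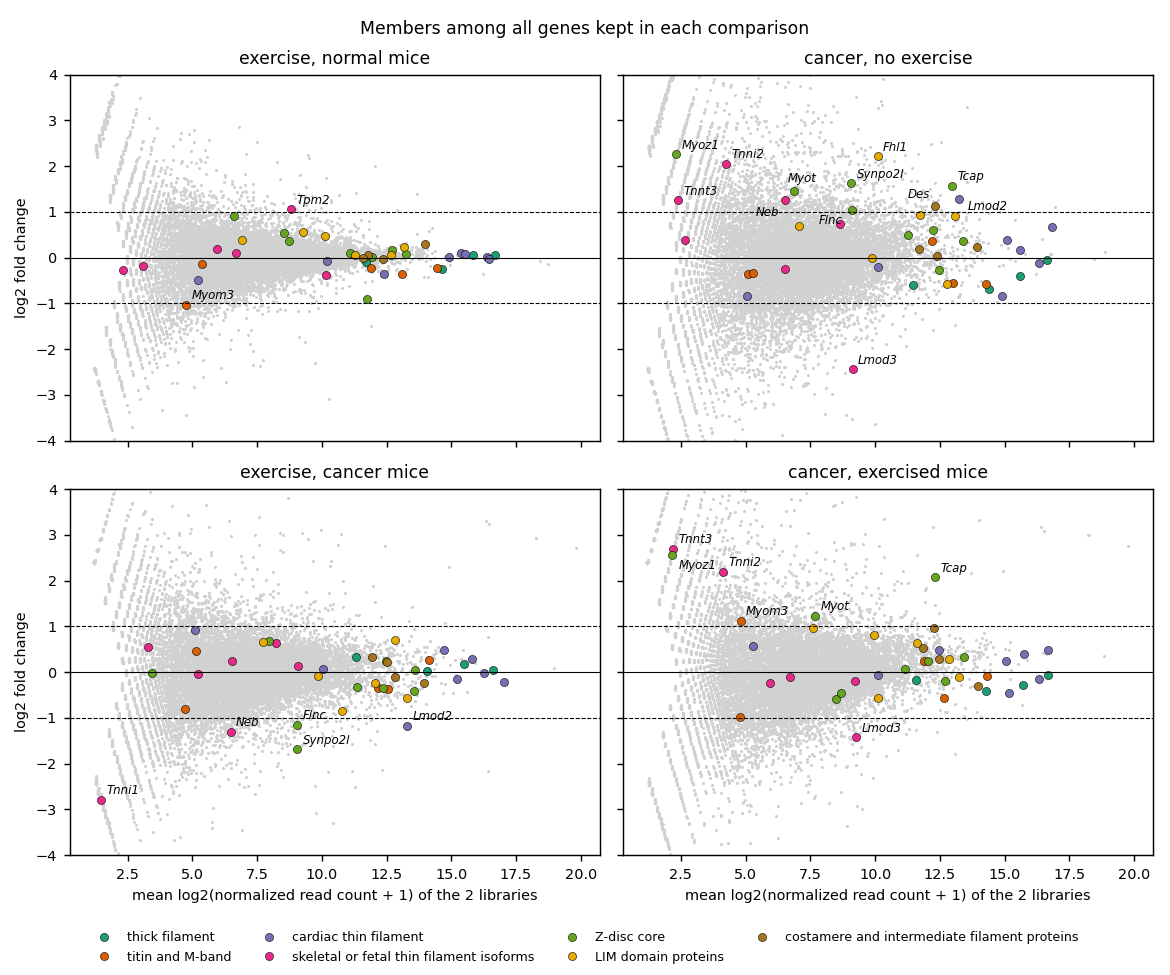
Log2 fold change against the mean log2 level for all genes kept (grey) and for the members (coloured by role) in the 4 comparisons, with names for the members called at 2-fold (dashed lines). The vertical axis ends at 4 either way. In the panel of cancer without exercise 11 members lay above the upper line and 1 below the lower line, and the members ran from -2.44 to 2.25.

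**Figure D3:**
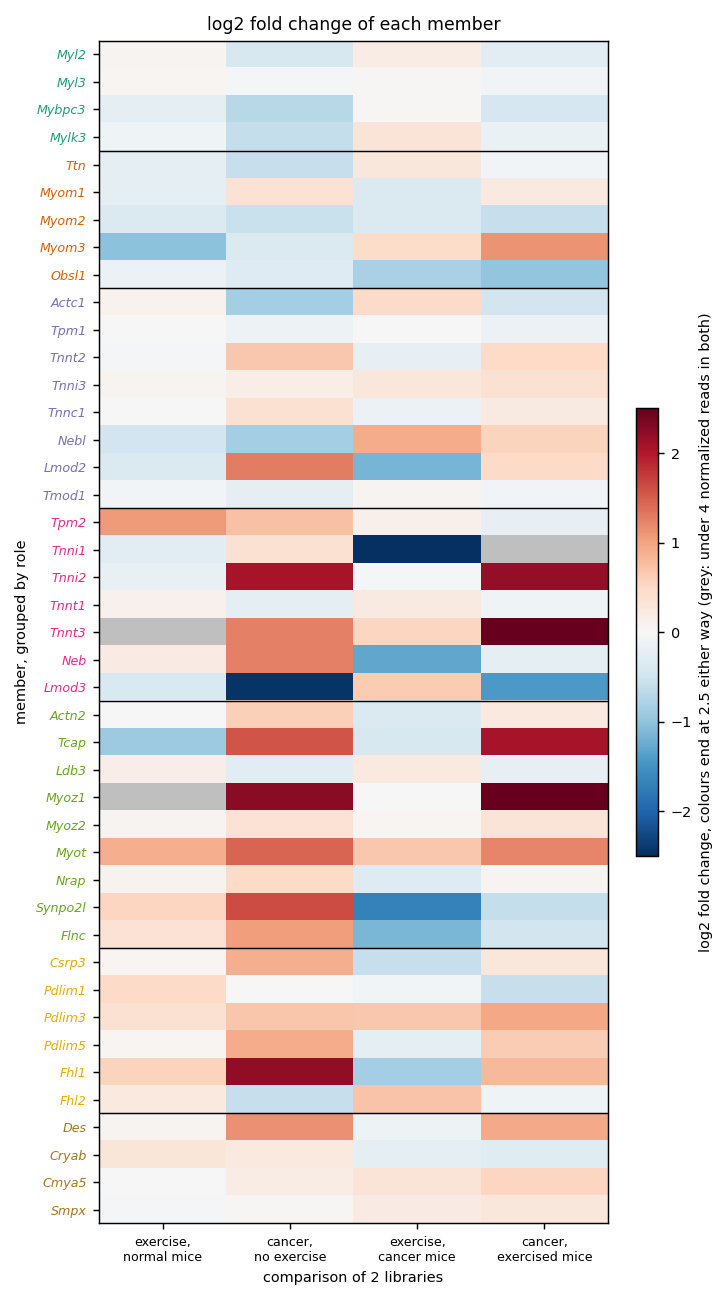
Log2 fold change of each member in the 4 comparisons, with members in rows by role and comparisons in columns, red for higher and blue for lower in the exercised or cancer library. Most core Z-disc genes were red in the column of cancer without exercise, while all 4 thick filament genes were blue there.

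For 34 of the 43 members RefSeq gave a promoter in GRCm38.p6, with 48 start sites in all, and the 250 bases before each start were searched on both strands for motifs of factors known for muscle genes. The CArG box, bound by serum response factor, was found in 9 of the 48, or 18.8%, against 1.47% of 32851 promoters of the genome. The MEF2 site was found in 7, or 14.6%, against 2.92%. The E-box, spelled CANNTG, was in 36 of the 48 against 66.2% of all promoters, and the MCAT motif, spelled CATTCC, was in 9 of the 48 against 12.6%. Starts of the same gene are not independent, and the windows of Ldb3 overlap and hold the same CArG box. Counted by gene, the CArG box was in 7 of 34, against 1.62% of 27025 genes, and the MEF2 site in 6, against 3.42%. The E-box was in 28 of the 34 genes against 69.3%, and the MCAT motif in 9 against 14.4%. A match says only that the letters are present. Tnni2, Tnnt3, Neb, Lmod3, Tcap, Myoz1, Myot, Myom2 and Cryab had no entry. The following 4 are shown because their genes differ between the libraries in different directions, each running 5′ to 3′ along the gene and ending at the base before the start, with the CArG box or the MEF2 site in capitals.
Actc1, chr2:114052876-114053125, minus strand, CArG box: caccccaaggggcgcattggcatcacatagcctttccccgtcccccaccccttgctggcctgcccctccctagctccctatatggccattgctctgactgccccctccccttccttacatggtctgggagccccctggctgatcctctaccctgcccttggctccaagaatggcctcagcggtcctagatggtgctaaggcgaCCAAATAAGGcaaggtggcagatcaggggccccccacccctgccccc
Fhl1, chrX:56779433-56779682, plus strand, CArG box: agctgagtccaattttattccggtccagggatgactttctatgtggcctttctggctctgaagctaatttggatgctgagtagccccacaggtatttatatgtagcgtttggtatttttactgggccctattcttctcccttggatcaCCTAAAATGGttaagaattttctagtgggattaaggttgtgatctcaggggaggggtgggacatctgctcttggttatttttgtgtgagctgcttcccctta
Mybpc3, chr2:91117894-91118143, plus strand, MEF2 site: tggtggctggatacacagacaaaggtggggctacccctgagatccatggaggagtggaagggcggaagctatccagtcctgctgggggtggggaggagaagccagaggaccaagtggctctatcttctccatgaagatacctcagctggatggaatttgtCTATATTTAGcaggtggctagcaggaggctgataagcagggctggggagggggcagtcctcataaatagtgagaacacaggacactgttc
Synpo2l, chr14:20668355-20668604, minus strand, MEF2 site: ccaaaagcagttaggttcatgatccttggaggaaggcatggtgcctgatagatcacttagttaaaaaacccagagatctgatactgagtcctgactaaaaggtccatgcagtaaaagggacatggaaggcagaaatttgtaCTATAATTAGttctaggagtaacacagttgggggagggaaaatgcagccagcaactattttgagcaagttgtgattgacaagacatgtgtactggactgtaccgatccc
Actc1 and Fhl1 both had a CArG box in the window shown, and Actc1 was lower in the cancer control than in the normal control while Fhl1 was higher. Another window of Fhl1 had no CArG box. Likewise Mybpc3 and Synpo2l both had a MEF2 site and lay on opposite sides of 0 in that comparison. Since these genes were chosen for their different directions, these contrasts follow from the choice and are no result about the motifs. Neither motif was in these windows of Lmod2 and Flnc.

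All 4 thick filament members were below 0 in the cancer control against the normal control, 2 of them by more than 1.5-fold and none by 2-fold. The myosin heavy chains are not members, and Myh6 and Myh7 are given here outside the naming rule. On the deposited scale Myh6 had log2 fold changes of 0.21 for cancer without exercise and 0.66 for cancer with exercise. Those of Myh7 were -0.055 and 0.28. Mybpc3, which codes for cardiac myosin-binding protein C, had log2 levels of 14.75 in the normal control, 14.51 in normal exercise, 14.06 in the cancer control and 14.09 in cancer exercise. The libraries with cancer were thus both under the libraries without it, with log2 fold changes of -0.69 (95% interval -0.72 to -0.67) without exercise and -0.42 (-0.45 to -0.39) with it. Mylk3 codes for the cardiac kinase that phosphorylates the regulatory light chain, and its levels were 11.77, 11.66, 11.17 and 11.49 in the same order. Its log2 fold change in the cancer control was -0.60 (-0.67 to -0.52). The regulatory light chain itself, Myl2, stood at 15.81 and 15.87 without cancer and at 15.41 and 15.59 with it. Myl3, the ventricular essential light chain, was the steadiest of the thick filament genes, between 16.61 and 16.71 in the 4 libraries. Through the difference between these light chains, Myl3 had 1.79 reads for each read of Myl2 in the normal control and 1.78 in normal exercise, but 2.29 in the cancer control (95% interval 2.27 to 2.32) and 2.08 in cancer exercise (2.06 to 2.11).

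Of the 5 genes of titin and the M-band, 4 were below 0 in the same comparison, none by 1.5-fold, and Myom1 was above it. Ttn, the giant spring protein, had log2 levels of 14.57 in the normal control, 14.35 in normal exercise, 14.00 in the cancer control and 14.27 in cancer exercise. The M-band protein myomesin was measured through 3 genes that did not move together. Myom1 was highest in the cancer control, at 12.36 against 12.00, 11.78 and 12.01 in the normal control, normal exercise and cancer exercise. Myom2 was lower in both cancer libraries, with 13.28 and 12.93 without cancer and 12.73 and 12.36 with it. As a result there were 0.411 reads of Myom1 for each read of Myom2 in the normal control (0.395 to 0.428) and 0.450 in normal exercise (0.433 to 0.467), against 0.778 in the cancer control (0.752 to 0.804) and 0.785 in cancer exercise (0.752 to 0.819). The ratio therefore parted the libraries by cancer and was nearly the same within each pair.

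Myom3 and Obsl1 had far fewer reads. Myom3 had 33 reads in the normal control, 20 in normal exercise, 33 in the cancer control and 37 in cancer exercise. Normal exercise was the low library, and both calls of this gene rest on it. The log2 fold change was -1.03 (-1.94 to -0.22) between normal exercise and the normal control, and 1.12 (0.34 to 2.02) between cancer exercise and normal exercise. The first of these was -0.92 with a pseudocount of 4 and -0.89 when all libraries were subsampled to the same total of reads, and the second was 0.42 when reads were scaled by library totals and 0.68 after subsampling, so that neither call was held. Obsl1, a relative of obscurin, had 37, 42, 38 and 17 reads, with cancer exercise lowest, and its log2 fold change against normal exercise of -0.99 (-1.94 to -0.19) fell just short of 2-fold.

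The 8 genes of the cardiac thin filament went both ways between the cancer control and the normal control, with log2 fold changes from -0.85 for Nebl to 1.28 for Lmod2, a median of 0.02 and 4 of the 8 within 1.5-fold. Tpm1, the main cardiac tropomyosin, lay between 16.24 and 16.40 in the 4 libraries, the narrowest range of the 8. Tnnt2, the cardiac troponin T that binds tropomyosin, had log2 levels of 16.49 in the normal control, 16.45 in normal exercise, 17.15 in the cancer control and 16.94 in cancer exercise. Its partners in the troponin complex were closer, with the inhibitory subunit Tnni3 at 15.50, 15.57, 15.66 and 15.95 and the calcium-binding subunit Tnnc1 at 14.92, 14.92, 15.30 and 15.15. All 3 troponin genes were higher in both cancer libraries than in both libraries without cancer on the deposited scale, while with library totals they were lower in cancer exercise than in normal exercise. Cardiac actin, Actc1, went the other way, at 15.32 and 15.41 without cancer and 14.47 and 14.94 with it. There were 2.25 reads of Tnnt2 for each read of Actc1 in the normal control (2.22 to 2.28) and 2.06 in normal exercise (2.04 to 2.08), against 6.42 in the cancer control (6.34 to 6.51) and 3.99 in cancer exercise (3.94 to 4.04).

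The genes that set the length of the thin filament gave the sharpest contrast. Leiomodins nucleate actin and lengthen the filament at its pointed end, where tropomodulin caps it. Lmod2 (chr6:24597762-24605414, plus strand, GRCm38), the leiomodin best known from heart, had log2 levels of 12.59 in the normal control, 12.22 in normal exercise, 13.87 in the cancer control and 12.70 in cancer exercise. The cancer control thus stood apart from the other libraries, with a log2 fold change of 1.28 (1.23 to 1.32) against the normal control. Lmod3 (chr6:97238534-97252759, minus strand), a leiomodin known for its role in skeletal muscle, stood at 10.36, 9.97, 7.91 and 8.55 in the same order. Both cancer libraries were under both libraries without cancer, by a log2 fold change of -2.44 (-2.64 to -2.26) without exercise and -1.43 (-1.61 to -1.25) with it. Tmod1, the cardiac tropomodulin, stayed between 10.02 and 10.24. The reads of Lmod2 for each read of Lmod3 were 4.72 in the normal control (4.42 to 5.03), 4.75 in normal exercise (4.46 to 5.08), 62.4 in the cancer control (55.3 to 70.6) and 17.8 in cancer exercise (15.995 to 19.956). Between cancer exercise and the cancer control Lmod2 differed by -1.17 on the log2 scale (-1.21 to -1.13), and Lmod3 by 0.64 (0.40 to 0.87).

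**Figure D4:**
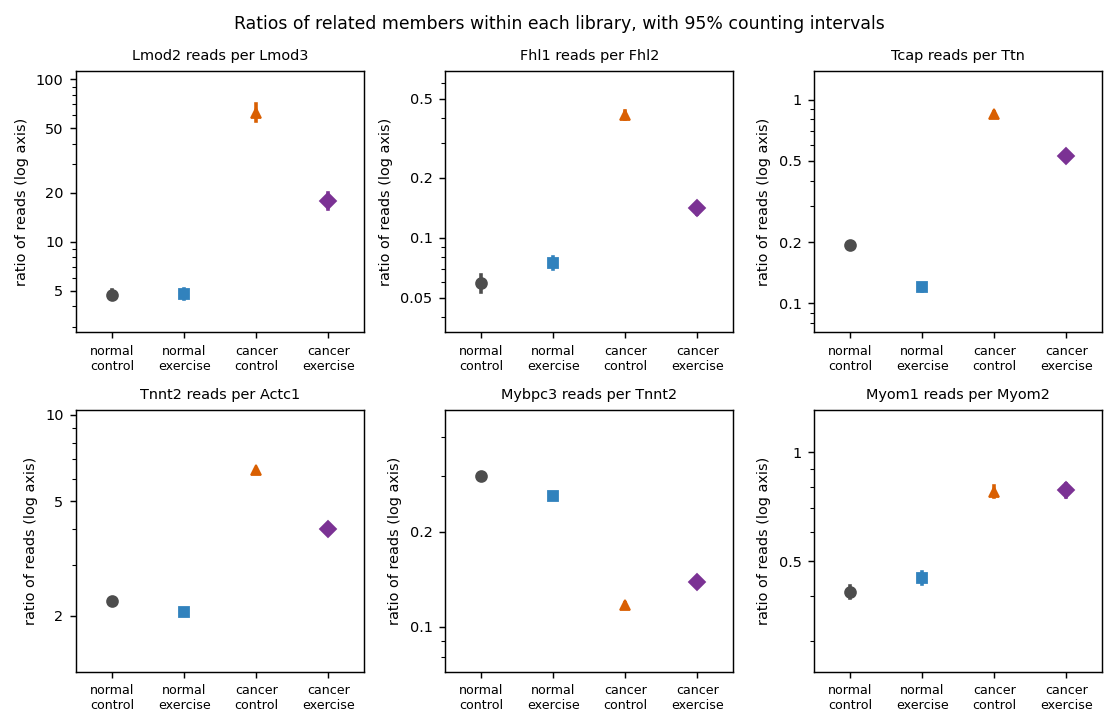
Reads of a member for each read of a related member within each of the 4 libraries, on log axes, with bars for the 95% counting interval. Lmod2 for Lmod3 stood at 4.72 and 4.75 without cancer and at 62.4 and 17.8 with it. Each of the 6 ratios shown had both cancer libraries on the same side of both libraries without cancer. The 6 were picked from a longer set of pairs, of which others did not part the libraries in this way. Neb for Nebl, for example, stood at 1.32 and 2.15 without cancer and at 5.85 and 1.21 with it.

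Nebulin is a ruler of the thin filament in skeletal muscle, nebulette is its relative in cardiac muscle, and both had few reads. Neb had 50 reads in the normal control, 73 in normal exercise, 158 in the cancer control and 51 in cancer exercise. The cancer control was again the high library, with a log2 fold change of 1.27 (0.81 to 1.77) against the normal control and with -1.31 (-1.81 to -0.86) for cancer exercise against it. Nebl had 38, 34, 27 and 42 reads, lowest in the cancer control, and its log2 fold change of 0.92 (0.22 to 1.70) between the cancer libraries did not reach 2-fold.

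Isoforms of tropomyosin and troponin that belong to skeletal or fetal muscle were rare beside their cardiac counterparts. Tpm2, which codes for beta-tropomyosin, had log2 levels of 8.28 in the normal control, 9.34 in normal exercise, 9.01 in the cancer control and 9.14 in cancer exercise. The normal control was the low library, and normal exercise against it gave a log2 fold change of 1.06 (0.86 to 1.27). There were 3.63 reads of Tpm2 for each 1000 of Tpm1 in the normal control (3.21 to 4.10), against 7.48, 6.57 and 7.25 in the others. Tpm2 is also transcribed in smooth muscle. The summed reads of 9 markers of smooth muscle and pericytes, leaving out the member Des, were 5202 in the normal control, 9915 in normal exercise, 7904 in the cancer control and 6284 in cancer exercise. The reads of Tpm2 were 270, 713, 582 and 514, and both were highest in normal exercise and lowest in the normal control. In normal exercise 4 of the 9 were at least 2-fold higher than in the normal control, against 5.88% of all genes kept. These were Cnn1 by a log2 fold change of 2.86, Tagln by 2.08, Acta2 by 1.41 and Myh11 by 1.39. The other 5 lay between -0.44 and -0.09. The part of these cells in the level of Tpm2 was not tested.

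The fast skeletal isoforms stood out only at very low levels. Tnni2, fast skeletal troponin I, had 7 reads in the normal control, 8 in normal exercise, 42 in the cancer control and 33 in cancer exercise. Both cancer libraries were above both others, with a log2 fold change of 2.05 (1.04 to 3.61) without exercise and 2.19 (1.17 to 3.64) with it. Tnnt3, fast skeletal troponin T, had 2, 1, 8 and 10 reads, and Myoz1, the fast-fibre partner of the cardiac Z-disc protein Myoz2, had 1, 1, 11 and 9. In all 3 genes both cancer libraries were above both others. Tnnt3 and Myoz1 passed the minimum of 4 normalized reads only through the cancer libraries, so their order adds no support to that of Tnni2. For Tnnt3 the log2 fold change was 1.25 (-0.70 to 4.89) without exercise and 2.70 (0.78 to 9.04) with it, and for Myoz1 it was 2.25 (0.30 to 8.51) and 2.57 (0.59 to 8.90). The call of Tnnt3 without exercise was not held with a pseudocount of 4, where the value was 0.80. Even in the cancer control there were only 0.714 reads of Tnni2 for each 1000 of cardiac Tnni3 (0.515 to 0.965). The summed reads of 15 skeletal muscle markers that are not members were 249 in the normal control, 418 in normal exercise, 355 in the cancer control and 318 in cancer exercise. In each comparison of cancer 10 markers were kept. In the cancer control 2 were at least 2-fold higher than in the normal control and 0 lower, against 14.6% and 13.1% of all genes kept. In cancer exercise 3 were higher than in normal exercise and 1 lower, against 12.0% and 11.1%. Tnnc2, fast skeletal troponin C, had 3, 0, 15 and 4 reads, and Atp2a1, the calcium pump of fast fibres, had 18, 11, 30 and 33. Other markers on the list went the other way. Casq1, skeletal calsequestrin, had 35, 124, 28 and 24 reads, and Mylpf had 21, 7, 17 and 4. Myf6 was at 0 in all 4 libraries, and Ryr1 was at 0 in all but the normal control. Tnnc2, Mylpf, Myf6 and Ryr1 are below the read minimum for naming and were chosen after their values were seen. The part of skeletal muscle RNA in the levels of the fast isoforms was not tested.

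Slow skeletal troponin did not have the order of libraries seen in Tnni2. Tnnt1, slow skeletal troponin T, had 87 reads in the normal control, 118 in normal exercise, 95 in the cancer control and 90 in cancer exercise. Its log2 levels lay between 6.41 and 6.75, and its log2 fold change in the cancer control was -0.25 (-0.69 to 0.18). Tnni1, the slow skeletal troponin I that the fetal heart uses, had 4, 4 and 7 reads in the normal control, normal exercise and the cancer control and 0 in cancer exercise. With the 0 set to the floor of 3 reads that a count of 0 allows, the log2 ratio of cancer exercise to the cancer control was -0.91. This takes the 7 reads of the cancer control as exact. The counting interval had its upper end at -0.22, so a smaller difference is not excluded by the reads.

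**Figure D5:**
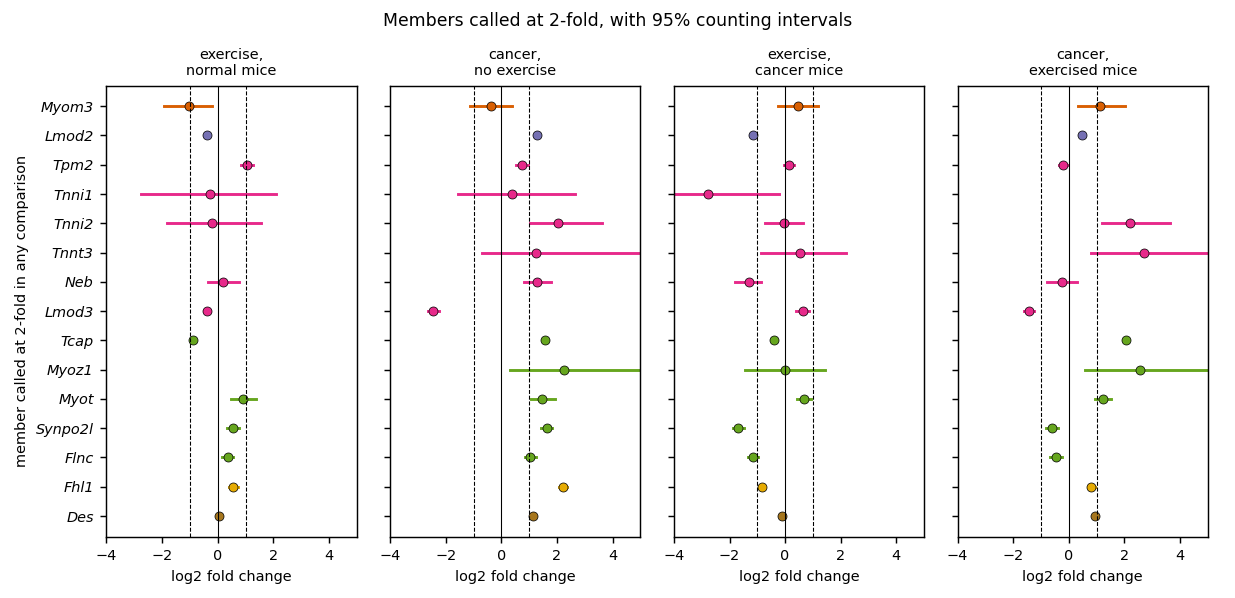
Log2 fold change of the 15 members called at 2-fold in any comparison, in each of the 4 comparisons, with bars for the 95% counting interval and dashed lines at 2-fold. Bars that leave the panel run past the axis. Lmod2, Lmod3, Tcap, Fhl1 and Des had intervals narrower than 0.5 in the panel of cancer without exercise, while Tnnt3 and Myoz1, with at most 11 reads in a library, had intervals over 5 wide.

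The core Z-disc genes were the role group with the highest median in the cancer control, at a log2 fold change of 1.04, and 8 of the 9 were above 0. Tcap (chr11:98383811-98384953, plus strand) codes for telethonin, which caps titin at the Z-disc. Its log2 levels were 12.19 in the normal control, 11.29 in normal exercise, 13.76 in the cancer control and 13.35 in cancer exercise. Both cancer libraries were above both others, with a log2 fold change of 1.57 (1.52 to 1.62) without exercise and 2.07 (2.01 to 2.13) with it. Normal exercise was the lowest library, at -0.90 (-0.97 to -0.83) against the normal control, which is short of 2-fold. Titin, its binding partner, differed less with cancer, by -0.57 without exercise and -0.08 with it. The reads of Tcap for each read of Ttn were 0.193 in the normal control (0.186 to 0.199), 0.120 in normal exercise (0.115 to 0.125), 0.850 in the cancer control (0.832 to 0.868) and 0.530 in cancer exercise (0.517 to 0.543). Myot codes for myotilin, which crosslinks actin at the Z-disc, and had 61, 147, 221 and 286 reads in the same order of libraries. On the deposited scale it was the only core Z-disc gene that was above 0 by more than 1.5-fold in all 4 comparisons, with log2 fold changes of 0.91 and 0.68 for exercise without and with cancer and of 1.46 (1.06 to 1.91) and 1.23 (0.94 to 1.53) for cancer without and with exercise. The last value was 0.51 when reads were scaled by library totals.

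Synpo2l and Flnc had a different order, with the cancer control alone on top. Synpo2l (chr14:20658946-20668354, minus strand) codes for an actin-binding protein of the Z-disc and had log2 levels of 8.27 in the normal control, 8.81 in normal exercise, 9.90 in the cancer control and 8.21 in cancer exercise. The log2 fold change was 1.62 (1.43 to 1.82) for the cancer control against the normal control and -1.69 (-1.89 to -1.49) for cancer exercise against the cancer control, so that cancer exercise lay close to the normal control. Flnc (chr6:29433256-29461883, plus strand), filamin C, links actin at the Z-disc to the membrane. Its levels were 8.57, 8.92, 9.61 and 8.46, with a log2 fold change of 1.04 (0.86 to 1.23) for cancer without exercise and -1.15 (-1.34 to -0.96) for exercise with cancer. The first of these was 0.89 when reads were scaled by library totals, with or without the genes over 1%, and so below 2-fold. In both genes cancer exercise was below normal exercise, at -0.60 for Synpo2l and -0.46 for Flnc, while the cancer control was above the normal control.

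The remaining core Z-disc genes kept within 2-fold everywhere. Actn2, the sarcomeric alpha-actinin that crosslinks thin filaments, had log2 levels of 11.92, 11.92, 12.52 and 12.17 in the same order of libraries. Nrap, a scaffold of forming myofibrils, was at 11.03, 11.13, 11.53 and 11.20, and Myoz2, the cardiac calsarcin, at 13.20, 13.27, 13.56 and 13.60. All 3 were higher in the cancer control than in the normal control, by log2 fold changes of 0.60, 0.50 and 0.36, and by 0.24, 0.07 and 0.33 in cancer exercise against normal exercise, where library totals turn the sign. Ldb3, which codes for the Z-disc protein cypher, had log2 levels between 12.35 and 12.79 and was the only core Z-disc gene below 0 in the cancer control against the normal control, at a log2 fold change of -0.27 (-0.32 to -0.21). That was also its largest difference in the 4 comparisons.

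Of the 6 genes of LIM domain proteins, 4 were higher by at least 1.5-fold in the cancer control than in the normal control, 1 of them by 2-fold, while Fhl2 was at -0.58 and Pdlim1 at -0.01. The median log2 fold change was 0.79. The largest difference was in Fhl1 (chrX:56731787-56793346, plus strand), which binds titin and takes part in the response to load. Its log2 levels were 8.99 in the normal control, 9.56 in normal exercise, 11.21 in the cancer control and 10.37 in cancer exercise. The log2 fold change was 2.22 (2.07 to 2.37) for cancer without exercise and 0.81 (0.68 to 0.94) with exercise. Its relative Fhl2, the main cardiac member of the family, was at 13.07, 13.30, 12.49 and 13.20 and was lowest where Fhl1 was highest. For each read of Fhl2 there were 0.0592 reads of Fhl1 in the normal control (0.0537 to 0.0652), 0.0746 in normal exercise (0.0694 to 0.0800), 0.412 in the cancer control (0.394 to 0.431) and 0.141 in cancer exercise (0.132 to 0.15).

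Csrp3, the muscle LIM protein, and Pdlim5, a PDZ and LIM protein of the Z-disc, approached 2-fold. Csrp3 had log2 levels of 12.65, 12.71, 13.56 and 12.99, and Pdlim5 had 11.26, 11.32, 12.18 and 11.94. Both were highest in the cancer control, by log2 fold changes of 0.90 (0.86 to 0.95) and 0.92 (0.85 to 0.99) against the normal control. Pdlim3 had 91 reads in the normal control, 151 in normal exercise, 191 in the cancer control and 245 in cancer exercise, with cancer exercise highest at a log2 fold change of 0.97 (0.67 to 1.27) against normal exercise. Pdlim1 differed least, being highest in normal exercise, at 10.38 against 9.90, 9.89 and 9.81 elsewhere.

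Desmin was the member of the costamere and intermediate filament group that differed by 2-fold. Des had log2 levels of 11.75 in the normal control, 11.81 in normal exercise, 12.88 in the cancer control and 12.77 in cancer exercise. Both cancer libraries were above both others, with a log2 fold change of 1.14 (1.08 to 1.20) without exercise and 0.95 (0.90 to 1.01) with it. The first of these was 0.98 when reads were scaled by library totals, with or without the genes over 1%, just under 2-fold. Des is also a marker of smooth muscle and pericytes and stood on that list. Cmya5, myospryn, which binds desmin, was at 11.59, 11.58, 11.78 and 12.11, and the small costamere protein Smpx was between 12.34 and 12.62. Cryab, the small heat shock protein that protects desmin, was highest in normal exercise, at 14.12 against 13.82 in the normal control, 14.06 in the cancer control and 13.83 in cancer exercise.

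Markers of other cell types moved with these comparisons. In the cancer control 4 of 10 fibroblast markers, 3 of the 9 smooth muscle and pericyte markers that are not members and 6 of 9 macrophage and neutrophil markers were at least 2-fold higher than in the normal control. Among them were S100a8 by a log2 fold change of 4.82 and Col1a1 by 2.10. Of 10 endothelial markers 0 were higher and 3 lower, with Kdr at -1.89. Of 8 adipocyte markers 0 were higher and 7 lower. Over all genes kept, 14.6% were higher and 13.1% lower. In cancer exercise 5 of the fibroblast markers were lower than in the cancer control and 0 higher, with Col3a1 at -3.31. Of the 9 atrial markers kept, 7 were higher and 1 lower, with Sln at 3.03, Myl4 at 2.32 and Nr2f1 at -1.42. Over all genes kept, 9.39% were higher and 10.0% lower. Their part in the differences of the sarcomere genes was not tested. By contrast, 40 genes that mark cardiomyocytes but are not part of the sarcomere gave -0.09 as their median log2 fold change in the cancer control, with 1 gene higher and 2 lower, against a median of 0.36 over the sarcomere genes. In cancer exercise against the cancer control their median was 0.25, with 2 higher and 0 lower, while the median over the sarcomere genes was -0.01.

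Other sarcomere genes outside the list gave a mixed picture. Of 41 such genes, 39 were kept in the cancer control, 6 of them at least 2-fold higher than in the normal control and 2 lower. Over all genes kept, 14.6% were higher and 13.1% lower. The median of the 39 was 0.07. Xirp1, an actin-binding repeat protein, had 217 reads in the normal control, 536 in normal exercise, 1216 in the cancer control and 481 in cancer exercise. Ankrd23, a titin-binding ankyrin repeat protein, was higher by a log2 fold change of 1.63, and skeletal actin, Acta1, was lower by -1.48. In cancer exercise against the cancer control 5 were higher and 4 lower, against 9.39% and 10.0% of all genes kept. Among them were the atrial light chains Myl4 at 2.32 and Myl7 at 1.73 and the titin-binding Ankrd1 at -2.17. Of 34 genes for the assembly and turnover of the sarcomere, 3 were higher and 2 lower in the cancer control, against the same 14.6% and 13.1%. Trim63, a ubiquitin ligase of the sarcomere, was higher by 1.43, the small heat shock protein Hspb7 by 1.37 and Trim54 by 1.08. In normal exercise 3 of the 33 kept were higher and 0 lower, against 5.88% and 6.40% of all genes kept. The 3 were the chaperone Hsp90aa1 by 1.99, Hspb1 by 1.39 and the transcription factor Hand2 by 1.36.

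Exons of 11 members overlap another annotated gene in GENCODE, among them Des, Neb, Cryab, Ttn and Tnni3, and whether reads were counted by strand is not given in the sources used here, so the levels of these 11 may include reads of their neighbours.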

How the data were processed

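Heart mRNA-seq libraries of 4 groups were analysed, 1 per group. Per the labels and the methods, the authors used Bowtie2 and mm10 for the QuantSeq 3′ reads, bedtools for the number of reads on each gene, and a quantile method of edgeR for the normalization. What they deposited is, for each gene, the log2 value of the normalized read count. From these the whole reads were recovered, with relative library sizes and a shared dispersion (0.149) as fitted parameters, and every deposited log2 value was given back within 0.000521. In the range from 5 to 99 reads, 100% of 25460 values came out within 0.1 of a whole number, while the largest read numbers can be off by a few. The recovery was tested on simulated data.

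Fold changes are differences of deposited values (pseudocount 1). Calls needed a fold of at least 2 and 4 normalized reads in 1 of both libraries. A test across groups was not possible. Intervals are at 95%, Clopper-Pearson for ratios and Wilson for shares. The 43 members were given, and the members, roles and other lists were chosen with earlier results of these data known. By rule, each member called and, in each role, the 2 members with the largest and the 1 with the smallest difference have values in every library, and of other lists at most 4 genes with the largest difference and a mean of at least 16 are named. Alternatives changed the scaling, the minimum, the pseudocount, the depth and the fold. A minimum mean of 100 was added after the data were seen. Promoters are from RefSeq (GRCm38.p6) and gene positions from GENCODE on the same build. The scripts ran in Python 3.11.15 and used the packages numpy (2.4.6), scipy (1.17.1), matplotlib (3.10.9) and pandas (2.3.3).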

Additional observations from a re-analysis of the deposited data

Results flagged for a closer look

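Synpo2l had opposite differences with cancer in the libraries without and with exercise. Its log2 fold change was 1.62 between the cancer control and the normal control and -0.60 between cancer exercise and normal exercise. With 1 library per group, the difference between these values was not tested.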

How the results depend on the processing

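Of the 26 calls of single members, none changed direction under 6 other settings, and of the 156 values 143 stayed past 2-fold. The counts of members called and their medians moved as follows. At a fold of 1.5 the members called higher and lower were 2 and 2 for exercise without cancer, 17 and 5 for cancer without exercise, 5 and 7 for exercise with cancer, and 10 and 3 for cancer with exercise. With library totals, the members called lower were 2 for cancer without exercise, 8 for exercise with cancer and 11 for cancer with exercise, and the medians were 0.21, -0.56 and -0.65, the last of which was 0.15 with the deposited values. Without genes over 1%, the median was 0.21 for cancer without exercise and -0.0214 for cancer with exercise, with 2 members lower in the latter. Centred on other cardiomyocyte genes, 0 members were lower for exercise without cancer and 2 for cancer with exercise, and the medians were -0.26 for exercise with cancer and 0.0205 for cancer with exercise. With a minimum of 16 normalized reads the medians were 0.21 for cancer without exercise and 0.0065 for cancer with exercise. With a mean of at least 100, chosen after seeing the data, 7 members were higher for cancer without exercise, 2 higher for cancer with exercise with a median of 0.0065, 3 lower for exercise with cancer and 0 lower for exercise without cancer. For exercise without cancer, 0 were lower with a pseudocount of 4 and after subsampling all libraries to the same total of 6595402 reads, which leaves fewer reads outside globin in cancer exercise than in the others. For cancer with exercise, 2 were lower after subsampling and with no minimum. Fewer genes tested accounts for part of the change under the stricter minimums, and the cause was otherwise not tested. No replicate could be left out, and summing duplicate symbols changed nothing, as no member had any. No paired analysis was possible because each group had 1 library. Depth limits the members with few reads, such as Tnni1, Tnnt3 and Myoz1, whose intervals are wide.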
